A study of Mus musculus with 5 samples.

Results

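This account follows 34 of the 23337 genes in a table of transcript levels from mouse embryonic fibroblasts: the enzymes that bring pyruvate into the tricarboxylic acid (TCA) cycle, the enzymes of the cycle, and those that fill and drain it. They were taken by gene symbol from a list of names, and all 34 were in the table and passed the filter on low values (10 or more normalized reads in at least 2 libraries). Poly-T selected RNA was sequenced from 2 libraries labelled knockout for SIRT3 (SIRT3 -/-, called KO) and 3 libraries labelled wild type (WT). Both groups are fibroblasts of strain 129Sv, immortalized with the SV40 T antigen and grown under normal conditions, so the viral antigen is present in the WT libraries too. The labels speak of lines, with nothing on whether replicates are separate lines, cultures or embryos, nor on the age of the embryos or the exons deleted. What the p-values measure is thus library-to-library spread, possibly only technical.

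The TCA cycle oxidizes acetyl-CoA in the mitochondrial matrix to carbon dioxide, passes electrons to the respiratory chain and supplies precursors of amino acids, lipids and nucleotides. Pyruvate enters it by oxidation to acetyl-CoA in the pyruvate dehydrogenase complex or by carboxylation to oxaloacetate. Kinases of the PDK family switch pyruvate dehydrogenase off by phosphorylation and the phosphatases PDP1 and PDP2 switch it on again. SIRT3 removes acetyl groups from proteins in the matrix, and isocitrate dehydrogenase 2 is among its known substrates. Transcript levels do not report acetylation, phosphorylation or enzyme activity.

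Library totals ran from 33473103 to 33579031 reads in the libraries labelled KO and from 37396488 to 41758681 in those labelled WT. Sirt3 itself, the targeted gene, had 200.4 and 217 normalized reads in the libraries labelled KO and 170, 149 and 118 in those labelled WT, a log2 fold change of 0.53 ± 0.152 (standard error; limma, adjusted p = 0.0044). An allele without transcript would be at odds with these values, and totals per gene cannot show a missing exon. Exons of Sirt3 share 418 bp with Ric8a and 342 bp with Psmd13 on the opposite strand, and without a stated strand setting, reads there cannot be told apart. Every direction below is between libraries as labelled. All 10 fibroblast markers were detected in both groups, and 2 rose and 6 fell, the widest difference being that of Pdgfra at -4.00 on the log2 scale. Summed fibroblast markers came to between 569768 and 608473 normalized reads in KO and between 612837 and 628587 in WT. Summed epithelial markers came to 34.1 to 36.7 normalized reads in KO and 7.91 to 12.4 in WT, endothelial ones to 65.6 to 66.1 in KO and 25.7 to 34.2 in WT, and macrophage ones to 78.2 to 101 in KO and 77.2 to 87.9 in WT. Muscle markers summed to 2.22 to 4.41 in KO and 0 to 1.85 in WT, adipocyte ones to 195.7 to 196.0 in KO and 173 to 182 in WT, and neuronal ones, nearly all from Map2 (listed as Mtap2), to 1947 to 2039 in KO and 1126 to 1162 in WT. Within these sums Epcam, Csf1r, Pparg and Map2 rose, at 1.69, 1.99, 0.52 and 0.80 on the log2 scale, Cebpa fell by 0.73, and Kdr rose, with 40.7 and 35.6 normalized reads in KO and 0, 2.97 and 1.85 in WT. Cd68, Cdh5 and Tek did not pass the test, and the remaining markers of these cell types were below the filter. Myod1, Adipoq, Snap25 and Rbfox3 were at 0 in all 5 libraries, and the part of other cells in the results was not tested. In bulk samples, fewer cells of a type and less RNA per cell cannot be told apart.

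In the libraries labelled KO, 13 of the 34 genes rose and 9 fell, taking an adjusted p below 0.05 as the threshold (limma on log2 normalized reads, adjusted over 13062 genes), and 12 did not pass. That is 64.7% called, where 65.3% of all genes tested were called, so the number of calls is near the background of this comparison. The higher calls were 38.2% and the lower calls 26.5% of the genes, against 32.6% and 32.6% of all genes tested. The median log2 fold change was 0.016, against -0.0023 over all genes tested, and the median size of the change was 0.19, against 0.30. Values of the libraries labelled KO lay above all those labelled WT for 13 of the 34 genes and below all of them for 12, where 37.8% and 37.6% of all genes tested did so and 75.4% did either. A call with a difference of 0.3 or more on the log2 scale was made for 13 of the 34 genes, against 43.8% of all genes tested. Among the genes of pyruvate and the TCA cycle, 4 differed by 1 or more on the log2 scale. The kinase genes Pdk4, Pdk1 and Pdk2 fell by that much, as did 6.41% of all genes tested, and the malic enzyme gene Me3 rose. By size alone, Pdk2, the smallest of the 4, changed more than 86.9% of all genes tested, and Me3 more than 91.4%. Changes as large as that of Pdk2 were thus not rare among all genes tested.

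**Figure D1:**
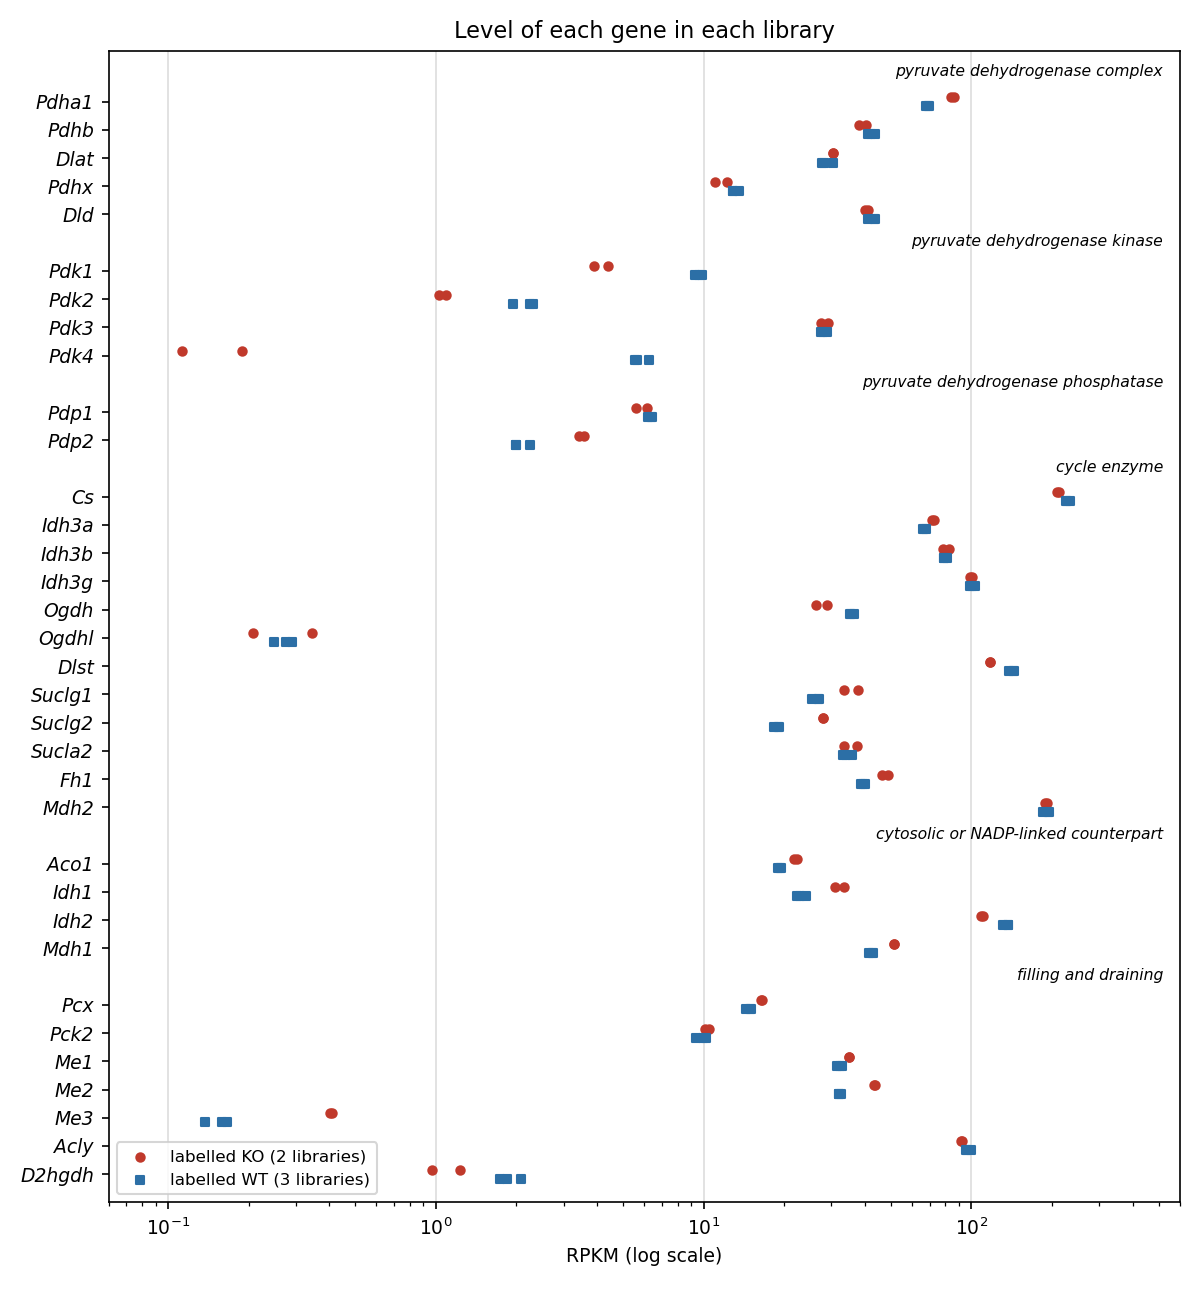
Level of each of the 34 genes in RPKM (reads scaled to gene length and library size, log scale), one point per library, with the 2 libraries labelled KO as circles and the 3 labelled WT as squares. Cs, Mdh2 and Dlst stand at the high end, Ogdhl, Me3 and, in the libraries labelled KO only, Pdk4 at the low end.

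The kinase genes carried 3 of the 4 largest differences, and the sequences before their transcription starts are shown because 3 of the 4 genes fell while the fourth did not pass the test. Each line gives 180 bases, from 250 to 71 bases before the start in RefSeq's promoter table (GRCm38.p6, to which the name mm10 also refers), read 5′ to 3′ on the strand of the gene. For Pdk1 that start is 71873224, which lies 9 bases inside the outermost position of the gene, and for the other 3 it is the outermost position. Capitals mark the letters ACGTG or GCGTG on either strand, the core of the hypoxia response element.
Pdk4 (chr6:5496349-5496528, minus strand): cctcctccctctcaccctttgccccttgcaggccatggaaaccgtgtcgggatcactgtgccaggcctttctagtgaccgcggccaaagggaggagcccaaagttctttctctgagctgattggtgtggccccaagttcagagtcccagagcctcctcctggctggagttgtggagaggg
Pdk1 (chr2:71872974-71873153, plus strand): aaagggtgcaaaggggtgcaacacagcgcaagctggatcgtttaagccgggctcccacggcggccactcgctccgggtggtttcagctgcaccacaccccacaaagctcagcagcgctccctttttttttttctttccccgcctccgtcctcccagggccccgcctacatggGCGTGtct
Pdk2 (chr11:95041442-95041621, minus strand): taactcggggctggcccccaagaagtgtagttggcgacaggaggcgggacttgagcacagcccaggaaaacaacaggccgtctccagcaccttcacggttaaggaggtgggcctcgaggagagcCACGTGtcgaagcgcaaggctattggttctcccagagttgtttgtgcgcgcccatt
Pdk3 (chrX:93832221-93832400, minus strand): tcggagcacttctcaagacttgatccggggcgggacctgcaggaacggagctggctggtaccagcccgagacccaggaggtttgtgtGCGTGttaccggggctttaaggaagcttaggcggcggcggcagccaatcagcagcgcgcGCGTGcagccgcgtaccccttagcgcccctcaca

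The window of Pdk4 held none of the motifs searched. Pdk1 had 1 match to GCGTG, 78 bases before that start, and Pdk3 had 2, at 163 and 104 bases. In Pdk2 the match was CACGTG at 126 bases, an E box that reads the same on both strands and so contains ACGTG on each of them. Of 32851 windows of the same length before RefSeq starts, 11.3% held ACGTG, 20% GCGTG and 3.69% CACGTG on either strand. The FOXO core GTAAACA was in none of the 4 windows and in 2.37% of all windows. These matches describe letters and say nothing of binding. The genes themselves lie on chromosome 6 from 5483351 to 5496278 (Pdk4), chromosome 2 from 71873215 to 71903858 (Pdk1), chromosome 11 from 95026258 to 95041371 (Pdk2) and chromosome X from 93764616 to 93832150 (Pdk3) in GRCm38.p6, to which all positions refer.

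Pdk4, the kinase gene that fasting and fatty acids are known to induce in muscle and liver, had 14.3 and 24.5 normalized reads in the libraries labelled KO, against 706, 718 and 798 in those labelled WT. The groups lay far apart, and the WT level was 37.5-fold that of KO on the log2(value + 1) scale used for every fold change here (log2 fold change -5.23 ± 0.168, standard error; limma, adjusted p = 7.3e-17). On RPKM with a pseudocount of 0.1 its log2 fold change was -4.57, and in the authors' deposited table it was -4.69. Pdk1, a known target of the hypoxia-inducible factor HIF-1, had 834 and 746 normalized reads in the libraries labelled KO and 1826, 1875 and 1764 in those labelled WT. Its log2 fold change was -1.21 ± 0.0599 (limma, adjusted p = 1.4e-13). Pdk2, the most widely expressed kinase of the family across tissues, had 85.9 and 92.3 normalized reads in the libraries labelled KO and 162, 189 and 192 in those labelled WT, a log2 fold change of -1.01 ± 0.15 (limma, adjusted p = 4.6e-06). For each of these genes both KO values lay below all WT values, and the call held under all 17 alternatives tried. Pdk3, the fourth kinase, had 2156 and 2043 normalized reads in the libraries labelled KO and 2062, 2134 and 2028 in those labelled WT. These ranges overlap, and the 95% interval of its log2 fold change ran from -0.08 to 0.12.

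Per length, Pdk3 was the main kinase transcript in all 5 libraries. It averaged 28.3 ± 1.34 RPKM in the libraries labelled KO and 28.1 ± 0.7 in those labelled WT (SD, n = 2 and 3, as throughout). Pdk1 averaged 4.15 ± 0.362 RPKM in KO and 9.60 ± 0.283 in WT, Pdk4 0.151 ± 0.0546 in KO and 5.81 ± 0.395 in WT, and Pdk2 1.06 ± 0.0442 in KO and 2.17 ± 0.2 in WT. Pdk3 thus made up 84.1% of the summed kinase RPKM in each library labelled KO, against 62.0%, 61.9% and 60.6% in WT replicates 1, 2 and 3. The share of Pdk4 was 0.323% and 0.583% in the libraries labelled KO and 12.3%, 12.1% and 13.8% in those labelled WT. The sum over the 4 kinases was 33.7 ± 1.60 RPKM in KO and 45.7 ± 0.819 in WT, and neither group's libraries reached into the range of the other. With 2 libraries against 3, an exact two-sided permutation test cannot go below p = 0.2, which is the value for these shares and for the sum.

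**Figure D2:**
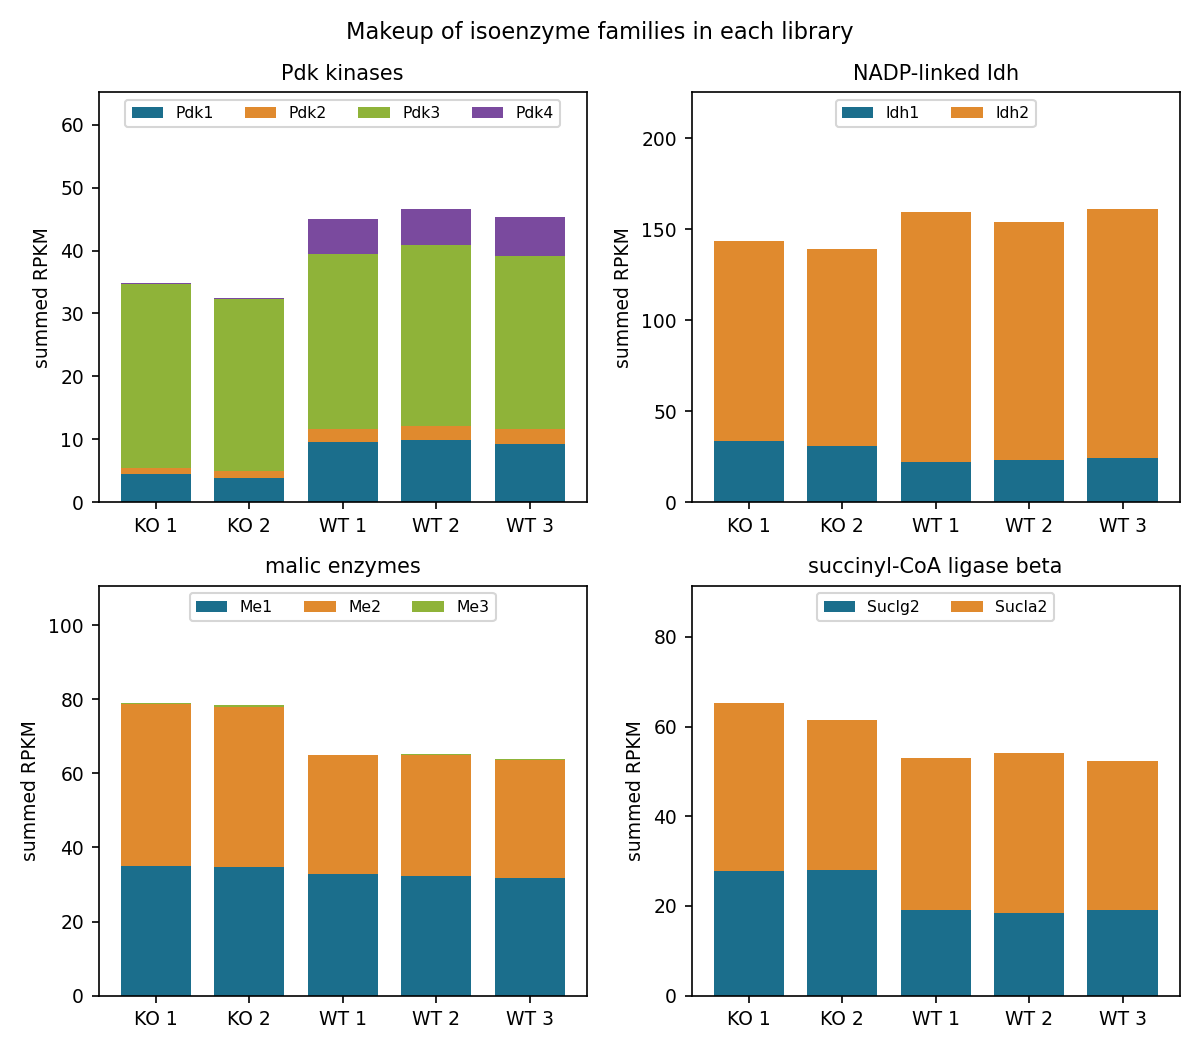
Summed RPKM of 4 isoenzyme families in each library, stacked by gene, with the 2 libraries labelled KO at the left of each panel and the 3 labelled WT at the right. The kinase sum averaged 33.7 RPKM in KO and 45.7 in WT, with Pdk3 as the largest block in all 5 libraries, and the Me3 block is too thin to see.

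The phosphatases that oppose the kinases stood below them in summed RPKM, at 9.38 ± 0.512 in KO and 8.39 ± 0.235 in WT. Pdp1 alone averaged 5.89 RPKM in KO and 6.32 in WT, above Pdk2 and Pdk4 in both groups. Pdp2 (chromosome 8, 104591472 to 104599026) had 461 and 446 normalized reads in the libraries labelled KO and 256, 257 and 290.5 in those labelled WT, so the groups did not overlap and the gene rose, with a log2 fold change of 0.76 ± 0.101 (limma, adjusted p = 1.1e-06). Pdp1, the calcium-sensitive phosphatase, had 977 and 899.6 normalized reads in the libraries labelled KO and 985, 1009 and 1016 in those labelled WT. Its KO values lay just below the WT values, and it did not pass the test (log2 fold change -0.10, 95% interval -0.23 to 0.03; limma, adjusted p = 0.18). Pdp2 made up 36.7% and 37.9% of the summed phosphatase RPKM in the libraries labelled KO and 24.2%, 23.9% and 26.0% in those labelled WT. Summed kinase RPKM was 3.59 ± 0.025 times summed phosphatase RPKM in KO and 5.44 ± 0.181 times in WT (exact two-sided permutation p = 0.2, the smallest that test can give).

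Within the pyruvate dehydrogenase complex itself the genes moved apart by small amounts. Pdha1, which encodes the catalytic E1 alpha subunit that the kinases phosphorylate, had 8803 and 8647 normalized reads in the libraries labelled KO and 6894, 7061 and 7072 in those labelled WT. It rose by 0.32 on the log2 scale (SE 0.037; limma, adjusted p = 1.7e-07). The exons of Pdha1 share 603 bp with Map3k15 on the opposite strand, and whether counting used strand is not stated in the sources at hand, so reads in that stretch cannot be told apart. Pdhb, the partner E1 beta subunit, with a pseudogene Gm6123 that matches 1079 bp of it at 97.0% identity, did not pass (log2 fold change -0.10; limma, adjusted p = 0.063), and Pdha1 over Pdhb in RPKM was 2.13 and 2.21 in the libraries labelled KO and 1.64, 1.58 and 1.65 in those labelled WT. Dlat, the E2 acetyltransferase, was at 0.09 and Dld, the E3 subunit shared with other 2-oxoacid dehydrogenases, at -0.07 on the log2 scale, and neither passed (limma, adjusted p = 0.092 and 0.19). Dlat did pass without WT replicate 2 (limma, adjusted p = 0.016) and on recovered reads with edgeR (0.011) and DESeq2 (0.040). Those runs on recovered reads also left out WT replicate 2, so they are not separate from the first. In the authors' deposited DESeq2 comparison Dlat did not pass (adjusted p = 0.16). Pdhx, which anchors E3 to the core, fell by 0.17 on the log2 scale (limma, adjusted p = 0.017). That call was lost without KO replicate 2 (limma, adjusted p = 0.17), without WT replicate 1 (limma, 0.078), with DESeq2 on recovered reads (0.089) and in the authors' deposited table (0.055).

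**Figure D3:**
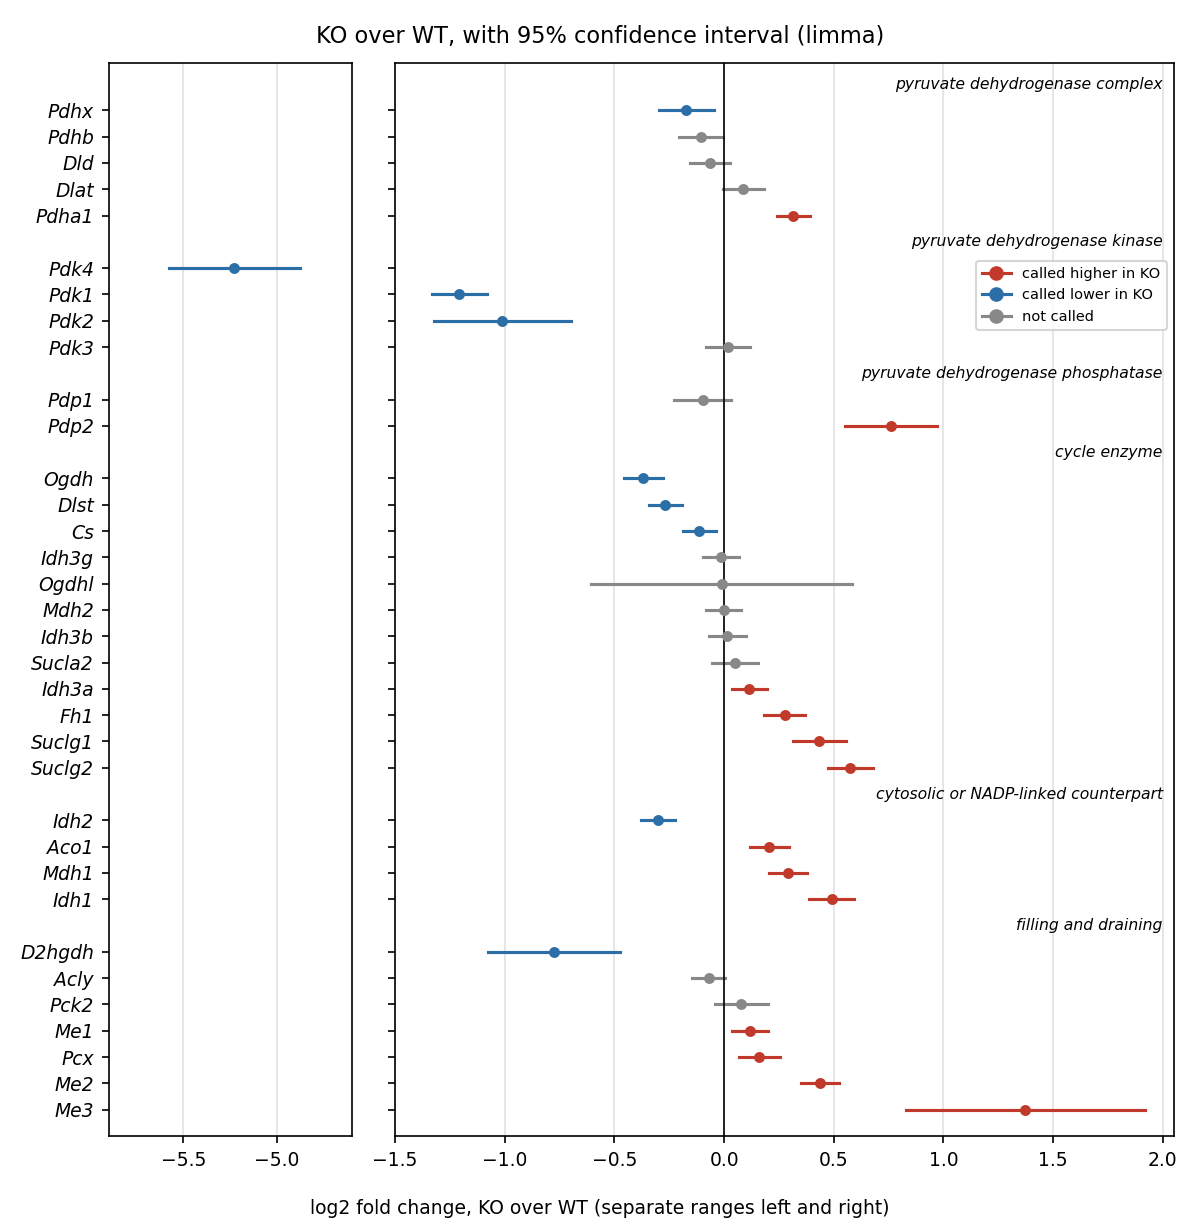
Log2 fold change of each gene, KO over WT, with its 95% confidence interval from limma, coloured by call and sorted within each role. The left panel has its own range and holds Pdk4 alone, at -5.23, while the other 33 genes lie between -1.21 and 1.37.

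Among the 12 genes of the cycle proper, 4 rose, 3 fell and 5 did not pass, where 32.6% of all genes tested rose and 32.6% fell. The succinyl-CoA ligase genes led the rises. Suclg2, the GDP-forming beta subunit (chromosome 6, 95473009 to 95718858), had 2342 and 2383 normalized reads in the libraries labelled KO and 1599, 1551 and 1606 in those labelled WT, a log2 fold change of 0.58 ± 0.0487 (limma, adjusted p = 1.1e-09). Suclg1, the alpha subunit common to both forms of the enzyme, had 1939 and 1736 normalized reads in the libraries labelled KO and 1309, 1379 and 1386 in those labelled WT, a log2 fold change of 0.43 ± 0.0573 (limma, adjusted p = 9.4e-07). Sucla2, the ADP-forming beta subunit, overlapped between groups, with 2909.5 and 2632 normalized reads in KO and 2649, 2793 and 2587 in WT. Suclg2 therefore took 42.7% and 45.6% of the summed beta subunit RPKM in the libraries labelled KO, against 35.8%, 33.9% and 36.5% in those labelled WT. A processed pseudogene of Suclg2, Gm15163, matches 1302 bp of its transcript at 98.9% identity, so counting could split reads between them.

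Fh1, fumarate hydratase, rose by 0.28 and Idh3a, the catalytic subunit of NAD-linked isocitrate dehydrogenase, by 0.11 on the log2 scale (limma, adjusted p = 1.5e-05 and 0.013). The Idh3a call was lost without KO replicate 2 (limma, adjusted p = 0.057) and without WT replicate 3 (limma, 0.065), and with the replicate number as a block (limma, 0.086). Its partner subunits Idh3b and Idh3g were at 0.02 and -0.01 and did not pass, with 95% intervals from -0.07 to 0.10 and from -0.10 to 0.07. Mdh2, mitochondrial malate dehydrogenase, stood at -0.0016 with an interval from -0.08 to 0.08, at 190.2 ± 3.00 RPKM in KO and 191 ± 5.49 in WT.

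The falls in the cycle were those of 2-oxoglutarate dehydrogenase and citrate synthase. Ogdh, the E1 subunit of the dehydrogenase, had 6754 and 7529.6 normalized reads in the libraries labelled KO and 9376, 9148 and 9106 in those labelled WT, a log2 fold change of -0.37 ± 0.0429 (limma, adjusted p = 1.5e-07). The KO libraries differed more from each other than the WT libraries did, yet both lay below every WT value. Dlst, the E2 subunit of the same complex, fell by 0.27 and Cs, citrate synthase, by 0.11 on the log2 scale (limma, adjusted p = 1.4e-06 and 0.0089). In RPKM, Ogdh was 0.223 and 0.246 times Dlst in the libraries labelled KO and 0.255, 0.256 and 0.244 times in those labelled WT, so the ratio overlapped between groups. Ogdhl, an Ogdh relative best known from brain and liver, was close to the filter, with 44.1 and 26.7 normalized reads in KO and 37.1, 31.7 and 35.2 in WT. At this depth its interval, from -0.61 to 0.59 on the log2 scale, does not exclude changes larger than that of Ogdh.

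The NADP-linked isocitrate dehydrogenases went in opposite directions. Idh1, the cytosolic enzyme (chromosome 1, 65158616 to 65186479), had 3017 and 2829 normalized reads in the libraries labelled KO and 2006, 2067 and 2170.3 in those labelled WT, a log2 fold change of 0.49 ± 0.0493 (limma, adjusted p = 1.7e-08). Idh2, its mitochondrial counterpart and a SIRT3 substrate (chromosome 7, 80094845 to 80118608), had 6915 and 6877 normalized reads in the libraries labelled KO and 8607, 8270.0 and 8608 in those labelled WT, a log2 fold change of -0.30 ± 0.0375 (limma, adjusted p = 4.3e-07). Idh2 remained the larger transcript per length, at 109 ± 1.42 RPKM in KO and 135 ± 3.27 in WT, against 32.3 ± 1.77 and 23.1 ± 0.922 RPKM for Idh1. Idh1 was 22.8% ± 0.735 of their sum in KO and 14.6% ± 0.532 in WT (exact two-sided permutation p = 0.2, the smallest that test can give). Of the other cytosolic counterparts, Mdh1, malate dehydrogenase of the malate-aspartate shuttle, rose by 0.29, with 3724 and 3768 normalized reads in KO and 3115, 2997 and 3070.4 in WT (limma, adjusted p = 3.1e-06). Aco1, an aconitase that binds RNA as iron regulatory protein when iron is scarce, rose by 0.21 on the log2 scale (limma, adjusted p = 0.00022). Of the 5 cytosolic genes 4 rose and none fell, and of the 29 mitochondrial genes 9 rose and 9 fell, beside the same 32.6% in each direction over all genes tested. Whether the compartments differ was not tested.

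Malic enzymes, which convert malate to pyruvate, rose in all 3 forms. Me3, a mitochondrial form (chromosome 7, 89632284 to 89854359), was the weakest, with 66.1 and 65.6 normalized reads in the libraries labelled KO and 22.1, 25.7 and 26.8 in those labelled WT. It was 2.59-fold higher in KO (95% interval 1.78 to 3.78; limma, adjusted p = 9.8e-05), and its exons share 569 bp with the opposite-strand RNA A230065N10Rik. Me2, the NAD-linked mitochondrial form, had 3953 and 3954 normalized reads in the libraries labelled KO and 2898, 2964 and 2908 in those labelled WT, a log2 fold change of 0.44 ± 0.0415 (limma, adjusted p = 7.1e-09). Me1, the cytosolic form, had 4609 and 4652 normalized reads in the libraries labelled KO and 4349, 4279 and 4178 in those labelled WT. Its call, at a log2 fold change of 0.12 (limma, adjusted p = 0.014), was lost without WT replicate 3 (limma, 0.084) and with DESeq2 on recovered reads (0.068). The block on replicate number, with the same estimate as leaving out WT replicate 3, also lost it (limma, 0.11). The pseudogene Gm7049 matches 1638 bp of Me1 at 98.5% identity. Summed over the 3 genes, malic enzyme RPKM was 79.0 and 78.4 in the libraries labelled KO and 65.1, 65.1 and 63.9 in those labelled WT, with Me2 above Me1 by 1.24 ± 0.008 times in KO and level with it at 0.998 ± 0.024 times in WT.

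Of the remaining genes, D2hgdh, which oxidizes D-2-hydroxyglutarate back to 2-oxoglutarate (chromosome 1, 93823195 to 93853857), had 109 and 141 normalized reads in the libraries labelled KO and 209, 197 and 235 in those labelled WT. The groups did not overlap and it fell by 0.77 on the log2 scale (SE 0.145; limma, adjusted p = 8e-05). The pseudogene Gm18666 matches 567 bp of it at 99.6% identity. Pcx, pyruvate carboxylase, rose by 0.16 on the log2 scale (limma, adjusted p = 0.0038), with 2613 and 2603 normalized reads in KO and 2375, 2273 and 2351 in WT, and was at adjusted p = 0.060 with DESeq2 on recovered reads. Pck2, mitochondrial phosphoenolpyruvate carboxykinase, overlapped between groups, with 1272 and 1334 normalized reads in KO and 1279.8, 1175 and 1247 in WT. Acly, which splits exported citrate into acetyl-CoA and oxaloacetate, had 15048 and 15186 normalized reads in the libraries labelled KO and 15752, 15599 and 16264 in those labelled WT, and did not pass (log2 fold change -0.07; limma, adjusted p = 0.096).

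To see how much of each difference its surroundings shared, each gene was set against the median of the other tested genes within 5 Mb on either side. For the 33 genes with at least 10 such neighbours this median ran from -0.33 to 0.56. It was 0.56 for Pdk4, so that gene fell in a region of rises, and 0.0096 for Pdk1 and -0.04 for Pdk2. Pdp2 had a neighbour median of 0.24, and with it subtracted its log2 fold change was 0.52 (limma, adjusted p = 0.00019). With the neighbour median subtracted, Dlst was at -0.0073, Suclg1 at 0.091 and Mdh1 at 0.074, and their calls were lost (limma, adjusted p = 0.88, 0.19 and 0.14). Genes that had not passed then did: Pdp1 at -0.25, Dlat at 0.20, Sucla2 at 0.18, Pck2 at 0.18 and Idh3b at 0.11 (limma, adjusted p = 0.0018, 0.00053, 0.0044, 0.0092 and 0.023). The direction turned for Cs, then at 0.21, for Pcx, at -0.15, and for Acly, at 0.26, each past the threshold (limma, adjusted p = 4.6e-05, 0.0096 and 2.8e-06). Each median was subtracted as a fixed value. The p-values after subtraction thus leave out its uncertainty and the spread among neighbours, and do not establish the gained or turned calls. Idh2 was at -0.087 (limma, adjusted p = 0.0499) and Suclg2 was at 0.31 in place of 0.58, while Idh1 was at 0.54 and Ogdh at -0.36.

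**Figure D4:**
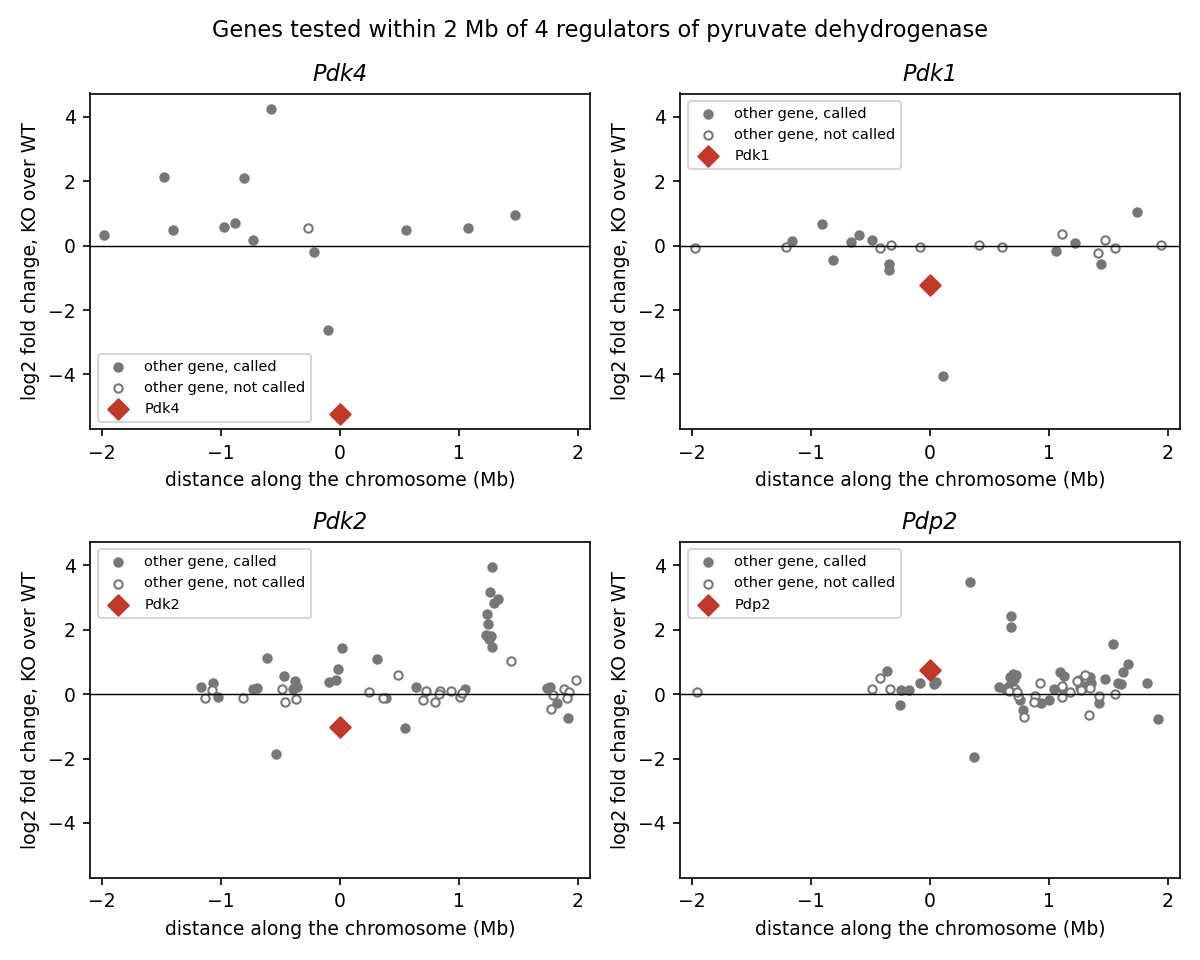
Log2 fold change, KO over WT, of every tested gene within 2 Mb of Pdk4, Pdk1, Pdk2 and Pdp2, by distance along the chromosome, with the named gene as a diamond and other genes as filled (called) or open (not called) circles. Around Pdk4, 11 of 14 other genes rose and 2 fell, with the gene just left of it among the falls. Around Pdk1, 7 of 25 other genes rose and 6 fell, around Pdk2 28 of 58 rose and 6 fell. Near Pdp2, 34 of 64 rose and 8 fell. Over all genes tested, 32.6% rose and 32.6% fell. The gene just right of Pdk1 had a log2 fold change of -4.04.

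The nearest tested genes on either side of the kinase and phosphatase genes differed in direction among themselves. Asb4, a ubiquitin ligase adaptor gene 50.3 kb from Pdk4, had 7.71 and 15.6 normalized reads in the libraries labelled KO and 64.5, 71.2 and 81.4 in those labelled WT, a log2 fold change of -2.60 (limma, adjusted p = 1.4e-07). On the other side of Pdk4, Slc25a13 was 545 kb away and rose by 0.50 on the log2 scale. Rapgef4, an exchange factor gene 77.4 kb from Pdk1, had 9.91 and 5.56 normalized reads in KO and 134, 153 and 129 in WT, a log2 fold change of -4.04 (limma, adjusted p = 1.3e-11), whereas Itga6, 14.8 kb away on the other side, was at -0.026 and did not pass. Pdk2 lay against genes that rose, Samd14 at 0.78 and Itga3 at 1.44. Beside Pdp2, both Nae1 and Rrad rose, at 0.35 and 0.31.

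Genes that serve the same reactions but lie outside the 34 were read from lists chosen with earlier results of these data known, and their counts stand beside the 65.3% of all genes tested that were called, 32.6% in each direction. Of 8 genes of succinate dehydrogenase and its assembly, 2 rose and 2 fell. The assembly factor gene Sdhaf2 rose by 0.51 and Sdhaf3, listed as Acn9, by 0.96, while the catalytic subunit gene Sdha fell by 0.12 on the log2 scale (limma, adjusted p = 0.0089). Of 6 mitochondrial carrier genes for pyruvate, citrate, malate and 2-oxoglutarate, none rose and 3 fell, led by the dicarboxylate carrier gene Slc25a10, with 2818 and 2938 normalized reads in KO and 4224, 4102 and 4115 in WT. The pyruvate carrier genes Mpc1 and Mpc2, listed as Brp44l and Brp44, were at -0.10 and 0.097 and did not pass (limma, adjusted p = 0.40 and 0.46). Of 12 genes for the lipoic acid cofactor of the 2-oxoacid dehydrogenases, 2 rose and 1 fell. The sister complex that oxidizes branched-chain 2-oxoacids split: the E2 gene Dbt fell by 0.84 and the E1 alpha gene Bckdha by 0.51, while Bckdhb, the kinase gene Bckdk and the phosphatase gene Ppm1k rose.

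Of 10 tested genes that handle pyruvate and lactate or respond to HIF-1, 4 rose and 4 fell. Ldhb, a lactate dehydrogenase subunit gene, fell by 0.67 and the pyruvate kinase gene Pkm, listed as Pkm2, by 0.35 on the log2 scale. Vegfa and Egln3, which like Pdk1 are known HIF-1 targets, rose, at 0.24 and 0.24, while Ldha, another such target, fell by 0.15 on the log2 scale (limma, adjusted p = 0.0016). The targets Slc2a1 and Bnip3 were at -0.053 and 0.14 and did not pass (limma, adjusted p = 0.23 and 0.22), and Hif1a itself fell by 0.13 on the log2 scale. The other rises of this list were Slc16a1 at 0.15 and Slc16a3 at 0.84. Slc16a3 was low, with 69.4 and 70.1 normalized reads in KO and 40.7, 44.5 and 31.5 in WT (limma, adjusted p = 0.0041). A part of HIF-1 in these differences was not tested. Among genes for acetyl-CoA use, the acetyl-CoA synthetase gene Acss2 fell by 1.01 and Fasn, fatty acid synthase, by 0.17, while Acaca, acetyl-CoA carboxylase, rose by 0.38 on the log2 scale.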

How the data were processed

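Per the labels' protocols, RNA bound to poly-T beads gave Nextera XT libraries for an Illumina NextSeq. STAR, DESeq2 and mm10 are named, per the submitters' processing notes, and no source used here names the counter, annotation or strand setting. The deposited signal values are counts over a library's size factor: in all 5 libraries every value was a whole multiple of a step within 0.1 reads. WT replicate 2 met this check too. Because its step of 0.989 was close to that of unscaled reads, it was nevertheless left out of the runs on recovered reads. The deposited signal values are called normalized reads. The authors also deposited RPKM values and their own comparison, which holds log2 fold changes, a Wald score and p-values, per the file headers.

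As the values were normalized, limma 3.58.1 (R 4.3.3, trended prior) was run on log2(value + 1), which understates changes of low genes, for 13062 genes, with Benjamini-Hochberg adjustment, two-sided. The fit was tested on simulated data. Alternatives were TMM and median-ratio rescaling, other filters and pseudocounts, each library left out, a replicate block, edgeR 4.0.16 and DESeq2 1.42.0 on recovered reads of 4 libraries (without WT replicate 2), the authors' comparison, RPKM (pseudocount 0.1) and removal of the neighbour median. Within groups, chi-square per gene between libraries had a mean of 3.45 to 7.60 and a median of 1.02 to 1.66, where counting noise gives a median of 0.455. Each library counted separately; technical and biological repeats cannot be told apart.

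Positions and promoter sequences came from RefSeq (GRCm38.p6), with promoters for 31 of 34 genes, and exon overlaps and near-identical copies from GENCODE M21. The genes and lists were chosen with earlier results of these data known. Every gene of the list is named, and values per library are given for those called at 0.3 or more on the log2 scale and for isoenzyme families. For some genes of smaller change they were added after their values were seen, and so were Mpc1, Mpc2, Bckdhb, Ppm1k, Hif1a, Egln3, Ldha, Slc2a1, Bnip3, Slc16a1, Slc16a3 and the genes beside the kinases and Pdp2. Of each other list, up to 3 genes of smallest adjusted p are named.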

Additional observations from a re-analysis of the deposited data

How the results depend on the processing

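Across 17 alternatives the number of the 34 genes called ranged from 20 to 25, against 22 in the fit reported. Leaving out single WT libraries gave 20 to 23. The share of all genes called moved too, from 47.6% with no filter to 69.5% at a mean of 50 or more, against 65.3% in the fit reported. It was 50.5% in the authors' comparison and 59.8% with the neighbour median removed, the setting with 25 genes called. Of the 22 called genes, 14 kept their direction and their side of the threshold under each alternative: Pdk1, Pdk2, Pdk4, Pdp2, Pdha1, Idh1, Idh2, Ogdh, Suclg2, Fh1, Aco1, Me2, Me3 and D2hgdh (Me3 was not tested at a mean of 50 or more). The sign turned with the neighbour median removed for Dld (0.020), Cs (0.21), Mdh2 (0.022), Pcx (-0.15) and Acly (0.26). It also turned for Ogdhl and Mdh2 with the replicate block (0.0014 and 0.0063) and for Ogdhl in the authors' deposited table (0.022). Leaving out single libraries turned genes that were not called: the range was -0.022 to 0.056 for Pdk3, -0.011 to 0.041 for Idh3b, -0.037 to 0.011 for Idh3g, -0.36 to 0.34 for Ogdhl, -0.023 to 0.12 for Sucla2 and -0.027 to 0.024 for Mdh2. The causes were not tested. With the replicate block 20 genes were called, 11 higher and 9 lower, where 60.5% of all genes tested were called. As replicate 3 is WT only, the block fit gives the same log2 fold changes as leaving out WT replicate 3. The labels do not say whether libraries of the same number share more than a number. The correlation of their deviations across genes, which are not independent replicates, was -0.0097 for number 1 and -0.0050 for number 2. With 2 KO libraries, the deviations of one mirror those of the other, so these values cannot show whether a batch was shared. On summed normalized reads in place of RPKM, the difference in share, KO minus WT, was -11.5 in place of -8.72 percentage points for Pdk1, 10.1 in place of 8.22 for Idh1 and 4.03 in place of 3.21 for Mdh1. With 2 libraries labelled KO, leaving out either assumes that the other varies like the WT libraries. Low counts limit Ogdhl, Me3 and the KO values of Pdk4.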
